A study of Homo sapiens with 6 samples.

Results

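The potassium channel genes of the human genome were examined in SW1990, a cultured line derived from a pancreatic ductal adenocarcinoma, grown with or without the DOT1L inhibitor EPZ-5676. Members were all rows of the gene table that were annotated as protein-coding and whose symbol began with KCN followed by a letter, which gave 97 genes of 58735 in the table (19951 of them protein-coding). The 3 treated libraries came from cells given 5 µM EPZ-5676. The labels call the 3 control libraries untreated, whereas the treatment protocol gives them DMSO, the solvent. No treatment time is given in the sources used here, all 6 libraries are of 1 cell line, and nothing says that replicates were separate cultures, so p-values measure only the spread between these libraries, which may be technical.

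Potassium channels let potassium ions pass through membranes and set the resting voltage and the repolarisation of cells. The voltage-gated (Kv) subunits open on depolarisation, the calcium-activated ones on a rise of calcium, the inward rectifiers pass current mainly into the cell, and the two-pore subunits carry background current. In ducts of the pancreas, potassium channels are known to supply the driving force for fluid and bicarbonate secretion. EPZ-5676 blocks DOT1L, which methylates histone H3 on lysine 79 in transcribed genes.

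Total assigned reads were 33970420 to 39749648 per library. Keratin genes KRT7, KRT8 and KRT18 were at 1142 CPM or more in every library (CPM are read counts scaled to a common library size), and MUC1 and SOX9 were present, but CDH1 and CFTR were listed at 0 reads in all 6 libraries, and KRT19 and EPCAM averaged 0.430 and 1.89 CPM in the controls. The summed level of the 9 epithelial markers was 5380 to 6180 CPM in controls and 6570 to 8360 CPM in treated libraries. That of 21 markers of other cell types was 42.3 to 59 CPM and 41.4 to 44.4 CPM, with 7 of the 21 at 0 reads throughout, among them PRSS1, INS and MYH7. The part of these shifts in the results below was not tested.

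Of the 97 members, 29 had enough reads to be tested and are called expressed here. The filter (filterByExpr in edgeR) asks for about 10 reads in at least 3 libraries. A gene can thus pass through 1 group alone, which favours a call toward that group. Of these 29, 18 also had a mean of at least 1 CPM over the 6 libraries. Another 37 had some reads but failed the filter, with at most 32 reads in any library, and 31 had 0 reads in all 6. A count of 0 allows up to 3 reads, which is 0.0754 to 0.0965 CPM depending on the library, counting error only. Some members at 0 share exon bases with another gene on the same strand, such as KCNK4 (1628 of 2632 bases) and KCNRG (1086 of 1625). How reads in shared bases were counted is not given, so a 0 is less certain there.

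Expression was uneven across the branches of the family. Among Kv alpha subunits (KCNA, KCNB, KCNC and KCND) only KCNC4 and KCND1 of 17 were expressed, and 10 had 0 reads, 7 of which were KCNA genes. Of these, KCNA6 has all 4237 of its exon bases inside exons of GALNT8 on the same strand, so its 0 is uncertain. Expressed members numbered 3 of 10 modifier Kv subunits, which form channels only together with other Kv subunits, 4 of 5 KCNQ genes, and 3 of 8 KCNH genes (EAG, ERG and ELK types). They numbered 3 of 8 calcium- or sodium-activated channel genes, 3 of 16 inward rectifiers, 5 of 15 two-pore genes and 6 of 18 accessory subunits or regulators.

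All members together took 0.0336% to 0.0398% of reads. Per kilobase of merged exons, KCNN4 led with 32.4 ± 2.13 CPM per kb in controls and 41.9 ± 3.42 in treated cells (mean ± SD, n = 3 each). KCNK15 (10.3 ± 0.816 and 13.6 ± 1.76 CPM per kb), KCNK1 (7.29 ± 0.705 and 4.97 ± 0.706), KCNQ1 (4.13 ± 0.595 and 6.45 ± 0.248) and KCNAB2 (3.75 ± 0.188 and 5.07 ± 0.193) came next. The long exon sequence of KCNMA1 lowered it from a level near that of KCNAB2 in CPM to the 13th place per length, at 0.994 ± 0.0912 and 0.840 ± 0.0320 CPM per kb.

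**Figure D1:**
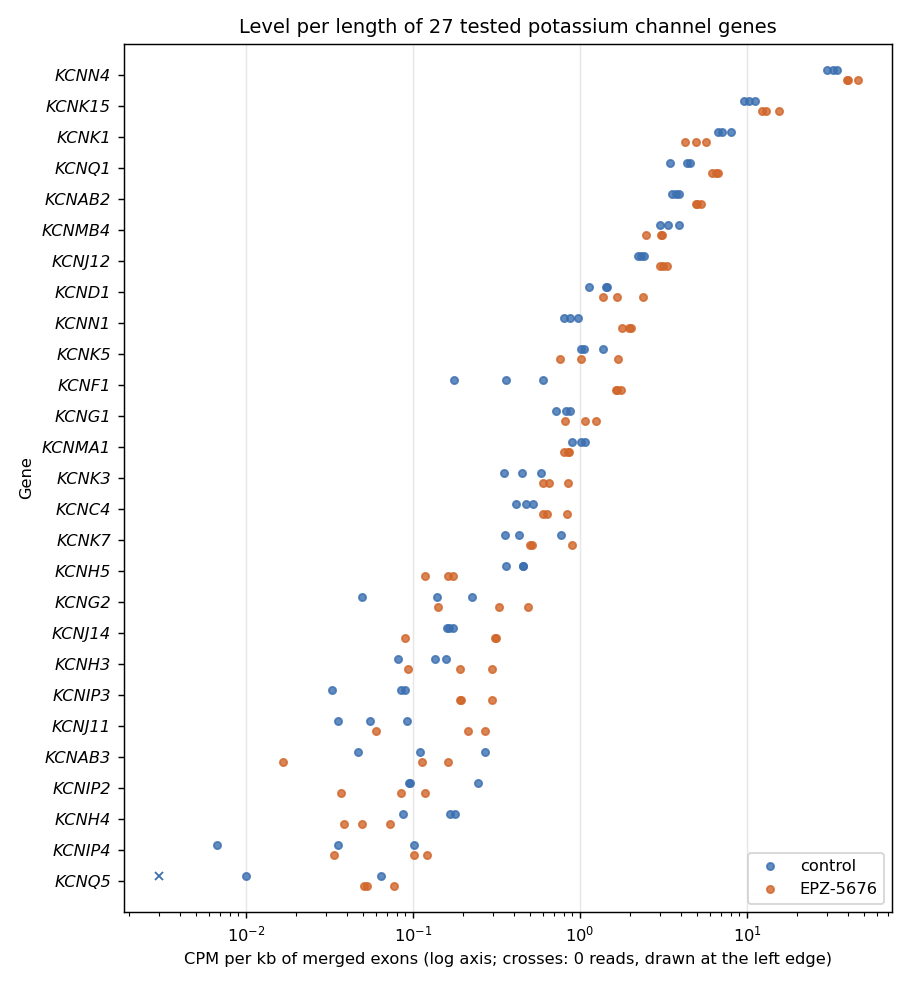
Level of 27 tested potassium channel genes in each library, in CPM per kb of merged exons on a log axis, with genes ordered by their mean. Blue points are the 3 controls and orange points the 3 treated libraries. KCNN4 stands above the rest, and libraries with 0 reads (in KCNQ5) are crosses at the left edge.

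With EPZ-5676, more expressed potassium channel genes rose than fell. Of 29 tested, 10 were higher and 2 lower (quasi-likelihood test in edgeR, with Benjamini-Hochberg adjusted p under 0.05 over 15496 genes). Of the 12 called, 1 had a mean below 1 CPM. Over all genes tested, 33.7% were called, 15% higher and 18.7% lower, and over protein-coding genes 39.4%, 17.7% higher and 21.8% lower. The members' total of 12 (41.4%) was therefore near the protein-coding background. Their median log2 fold change was 0.45, against -0.05 over all genes tested. The summed level of the 97 members was 322, 346 and 331 CPM in controls and 425, 390 and 399.8 CPM in treated libraries, and the groups did not overlap. Taken singly, 46% of all genes tested did not overlap between the groups. The sum was made without the GC and length correction described below. Without KCNN4, which made 31.9% to 36.8% of that sum, it was 222.6 ± 5.54 CPM in controls and 262 ± 8.28 CPM in treated cells.

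Transcript GC content moves with these calls, and its part in them was not tested. GC content (longest transcript) had a median of 59.29% in the expressed members and 49.07% in tested protein-coding genes. In protein-coding genes with a GC content of 50% or more, 35.4% were higher and 2.2% lower, against 1.65% and 39.5% below 50%. Of the 23 expressed members at or above 50%, 10 were higher and 0 lower, and of the 6 below it, 0 were higher and 2 lower. The 10 risers were thus all on the GC-rich side and both fallers on the other. A correction that fits each library's smooth trend with GC content and transcript length, and takes it out, left 4 higher, KCNF1, KCNN1 and KCNC4 among them, and 2 lower (KCNH5 and KCNK1), all 6 called in the same direction without it. With it, 11% of all genes were called, 5.4% higher and 5.58% lower, and 12.6% of protein-coding genes (6.14% higher and 6.44% lower), against 20.7% of the members, which is 6 genes. The members' median became 0.18. Such a correction also removes any effect of treatment that follows GC content or length. Without treated replicate 1, which stood apart from the other treated libraries in scaling (factor 0.915, against 1.0037 and 0.9957), 7 members were higher and 1 lower. Over all genes that fit called 1350 higher and 1884 lower, against 2326 and 2899 in the main fit.

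**Figure D2:**
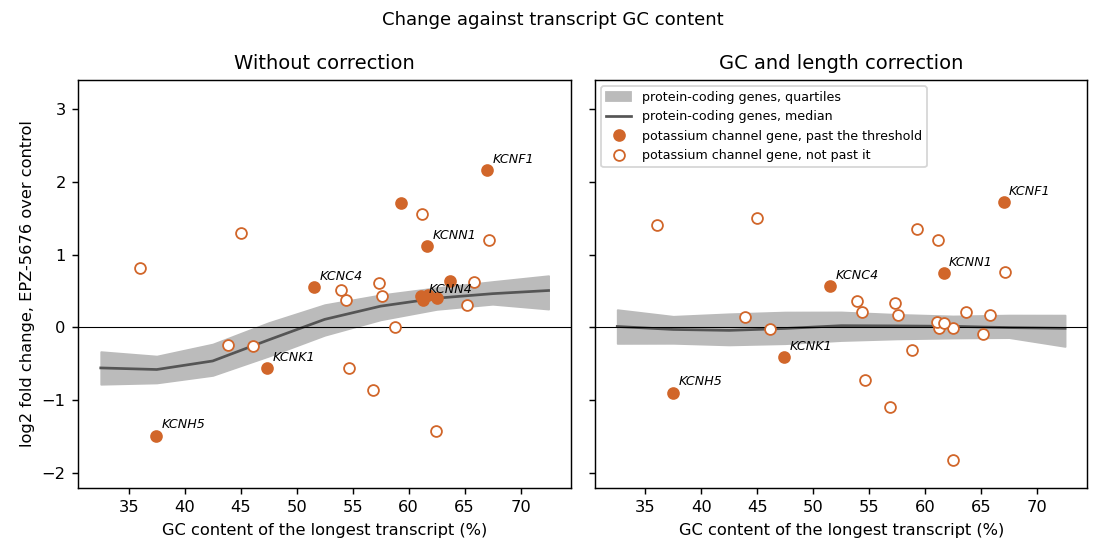
Log2 fold change (EPZ-5676 over control) against GC content of the longest transcript, without correction (left) and with the GC and length correction (right). Orange points are 27 tested potassium channel genes, filled where past the threshold, and grey shows the median and quartiles of protein-coding genes in 5% bins. On the left the grey median runs from -0.56 at 30% to 35% GC to 0.51 at 70% to 75%, and KCNN4 lies near it, whereas KCNF1 and KCNH5 lie off the band in both panels.

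The 4 promoters below belong to members called with and without the correction, and are shown because these genes had GC-rich (KCNF1, KCNN1), intermediate (KCNC4) and AT-rich transcripts (KCNH5). Each is the run of 250 bases before a RefSeq transcript start (GRCh38.p14), 5′ to 3′ on the gene's strand. Capitals mark GGGCGG, the GC box, or its reverse complement CCGCCC, and in KCNF1 the cyclic AMP response element TGACGTCA, a palindrome searched for after the sequence was seen. The start lies 3 bases before the table's gene start for KCNF1 (chr2:10911684-10911933, plus strand) and 1029 bases before it for KCNC4 (chr1:110210064-110210313, plus strand). It lies 15814 bases inside the table's gene for KCNN1 (chr19:17966857-17967106, plus strand) and 56579 bases inside it for KCNH5 (chr14:63045459-63045708, minus strand). Which starts are used in SW1990 was not tested.
KCNF1: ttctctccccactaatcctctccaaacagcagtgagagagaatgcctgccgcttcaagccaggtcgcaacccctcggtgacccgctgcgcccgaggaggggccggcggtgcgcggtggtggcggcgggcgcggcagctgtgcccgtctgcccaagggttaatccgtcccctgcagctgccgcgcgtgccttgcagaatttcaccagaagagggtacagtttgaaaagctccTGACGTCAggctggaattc
KCNC4: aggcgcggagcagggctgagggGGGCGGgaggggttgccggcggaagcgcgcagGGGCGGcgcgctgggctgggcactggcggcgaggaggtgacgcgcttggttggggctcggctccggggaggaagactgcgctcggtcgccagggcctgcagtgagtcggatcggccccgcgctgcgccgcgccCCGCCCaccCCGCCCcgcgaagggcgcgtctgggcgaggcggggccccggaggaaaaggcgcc
KCNN1: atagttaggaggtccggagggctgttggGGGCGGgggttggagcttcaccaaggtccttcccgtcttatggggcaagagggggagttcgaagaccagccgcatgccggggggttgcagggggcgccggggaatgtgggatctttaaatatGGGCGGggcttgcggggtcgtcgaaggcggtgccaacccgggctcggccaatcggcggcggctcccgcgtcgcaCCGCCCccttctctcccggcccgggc
KCNH5: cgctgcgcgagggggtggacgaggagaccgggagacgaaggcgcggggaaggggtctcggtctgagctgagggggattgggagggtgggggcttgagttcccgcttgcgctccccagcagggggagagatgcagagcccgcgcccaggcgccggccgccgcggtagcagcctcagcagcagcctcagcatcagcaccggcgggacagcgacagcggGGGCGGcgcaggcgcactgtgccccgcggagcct
All 4 windows were GC-rich, at 63.6% for KCNF1, 79.2% for KCNC4, 68.8% for KCNN1 and 74.0% for KCNH5. The longest annotated transcript of KCNH5, which may not begin at this start, had only 37.46% GC. KCNH5, the 1 of these 4 genes that fell, was thus as GC-rich as the others in this window, though not in that transcript. GC boxes numbered 0 in KCNF1, 4 in KCNC4, 3 in KCNN1 and 1 in KCNH5. KCNN1 has another window, 964 bases inside the table's gene, with 74.8% GC and 2 GC boxes, which is not printed because it overlaps an annotated exon. KCNK1, the other member that fell with and without the correction, has a window whose start lies 102 bases inside the table's gene. That window had 69.2% GC and 7 GC boxes, more than any window printed here. It also overlaps an annotated exon and is not printed. Over all 35116 RefSeq windows of this length, 42.6% held a GC box on either strand, and 19 of 27 windows of expressed members did (70.4%). These 27 windows came from 19 genes, and their median GC content was 69.2%, against 58% over all windows, whether expressed or not. Of 10 windows of members called higher, 5 held a GC box. The part of GC content in this contrast was not tested. TGACGTCA was in 1.65% of all windows and in 1 of the 27. Of the 97 members, 72 had a window in the table.

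Calcium-activated channels included the most abundant member. KCNN4 (ENSG00000104783, chromosome 19, 43766533 to 43781261, GRCh38) encodes the intermediate-conductance channel, which opens on calcium bound to calmodulin. Its levels were 103, 117 and 111 CPM in controls and 156, 137 and 135 CPM in treated libraries. Every treated library was above every control, with a log2 fold change of 0.37 ± 0.10 (SE; edgeR adjusted p = 0.00846), which became -0.0063 (adjusted p = 0.972) with the correction. KCNN1 (chromosome 19, 17951293 to 18000080), a small-conductance channel gene, stood at 3.19, 3.49 and 3.86 CPM in controls and 7.15, 7.81 and 7.99 CPM in treated libraries. This rise of more than 2-fold had little spread within groups (log2 fold change 1.12 ± 0.22, edgeR adjusted p = 0.000853) and was 0.75 ± 0.20 with the correction (adjusted p = 0.0170). The corrected call was lost without control replicate 2 (adjusted p = 0.0523), treated replicate 2 (0.0635) or treated replicate 3 (0.0637).

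KCNMA1 (chromosome 10, 76869601 to 77638369), the pore subunit of the large-conductance BK channel, did not pass. Its levels were 36.1, 31.9 and 38.3 CPM in controls and 30.8, 28.6 and 30.4 CPM in treated libraries. All treated libraries were below all controls, but the log2 fold change of -0.24 ± 0.13 had an edgeR adjusted p = 0.146, and it was 0.14 with the correction (adjusted p = 0.461). KCNMB4, an accessory beta subunit of BK channels, was at 19.0, 16.4 and 14.6 CPM in controls and 15.1, 14.9 and 12.1 CPM in treated libraries, with overlapping groups (log2 fold change -0.25 ± 0.16, edgeR adjusted p = 0.252). Of the other beta subunits, KCNMB1 had 0 reads in all libraries, and KCNMB2 and KCNMB3 had no more than 2 reads in any.

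Of the voltage-gated pore subunits, KCNC4 (chromosome 1, 110211343 to 110283100), a fast-inactivating member of the KCNC group, rose. It stood at 11.9, 10.4 and 13.1 CPM in controls and 15.97, 14.93 and 20.91 CPM in treated libraries, and treated replicate 3 was the highest. The log2 fold change was 0.55 ± 0.17 (edgeR adjusted p = 0.0171), and 0.56 ± 0.14 with the correction (adjusted p = 0.0113). Of the 12 called members, KCNC4 was the 1 whose change was not smaller after the correction. The correction used its longest annotated transcript (18750 bases, 51.54% GC), which may not be the form expressed here. Without treated replicate 3 it did not pass either way (adjusted p = 0.144, and 0.0811 with the correction). KCND1, a subunit of A-type transient currents, was at 6.56, 8.30 and 8.47 CPM in controls and 7.92, 9.69 and 13.8 CPM in treated libraries. Its groups overlapped (log2 fold change 0.43 ± 0.21, edgeR adjusted p = 0.117).

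KCNF1 (ENSG00000162975, chromosome 2, 10911937 to 10914225) had the largest change of the members with a mean of at least 1 CPM. It encodes a modifier subunit that makes no channel on its own and is known to join other Kv subunits. Its levels were 0.402, 1.37 and 0.831 CPM in controls and 3.83, 3.76 and 4.05 CPM in treated libraries. The controls varied among themselves by more than 3-fold, the treated libraries hardly at all, and the groups were far apart. The log2 fold change of 2.16 ± 0.37 (edgeR adjusted p = 0.000347) was 1.72 ± 0.34 with the correction (adjusted p = 0.00226), and KCNF1 passed in each of 21 alternative fits (adjusted p from 8.6e-08 to 0.0146). The gene spans 2.289 kb and has no intron in the annotation. KCNG1, another modifier, was at 3.92, 4.75 and 4.48 CPM in controls and 5.79, 4.45 and 6.78 CPM in treated libraries, with overlap (log2 fold change 0.37 ± 0.24, edgeR adjusted p = 0.233).

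**Figure D3:**
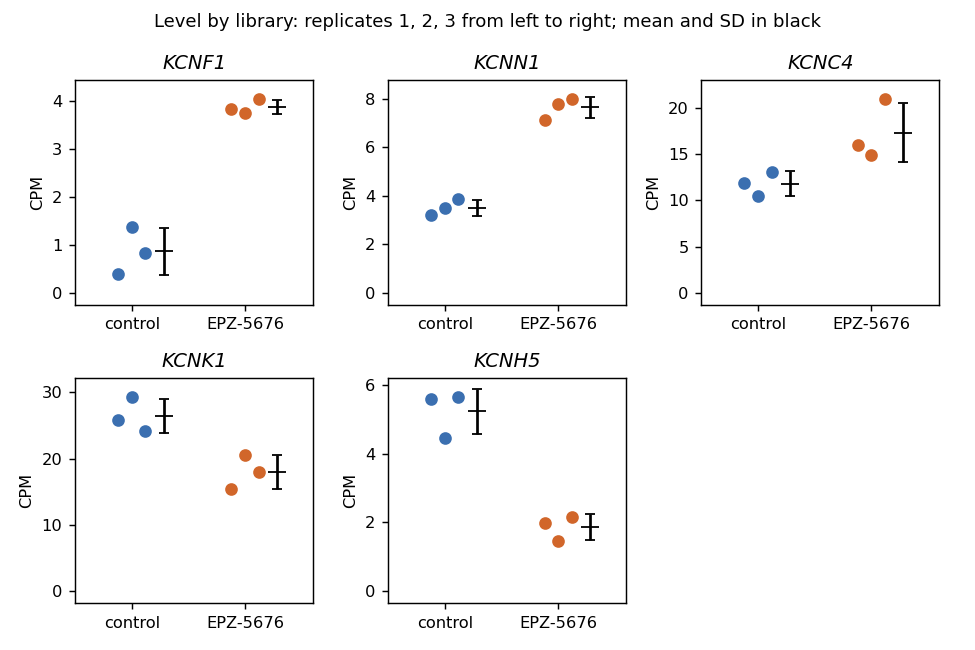
CPM in each library for 5 potassium channel genes called with and without the GC and length correction (blue: control, orange: EPZ-5676; black: mean and SD, n = 3), each panel with its own axis. In KCNF1, KCNN1 and KCNC4 every treated library is above every control, and in KCNK1 and KCNH5 every treated library is below.

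In the KCNQ group, KCNQ1 (chromosome 11, 2444684 to 2849110), which encodes a channel of epithelia and heart that KCNE subunits modify, rose. It stood at 20.4, 19.4 and 15.4 CPM in controls and 29.7, 27.5 and 28.9 CPM in treated libraries, a gap wider than the spread within either group. The log2 fold change was 0.64 ± 0.14 (edgeR adjusted p = 0.00241), but 0.21 ± 0.13 with the correction (adjusted p = 0.333). Of the KCNE genes, none was expressed, KCNE3 and KCNE1B had 0 reads, and KCNE5, with up to 15 reads, shares 78 exon bases with ACSL4. KCNQ5 did not pass (1.30 ± 0.92, adjusted p = 0.293) except without control replicate 2, which held 17 of its 20 control reads (edgeR adjusted p = 0.0345).

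KCNH5 (ENSG00000140015, chromosome 14, 62699454 to 63102037), an EAG-type channel gene known mainly from brain, had the largest fall among the called members. Its levels were 5.58, 4.47 and 5.63 CPM in controls and 2.00, 1.45 and 2.15 CPM in treated libraries. The lowest control was above 2 times the highest treated library. The log2 fold change of -1.48 ± 0.27 (edgeR adjusted p = 0.000552) was -0.89 ± 0.26 with the correction (adjusted p = 0.0263). The uncorrected call held in 13 of 13 alternatives without the correction. The corrected call was lost without control replicate 1, 2 or 3 (adjusted p = 0.0741, 0.0584 and 0.0729) and without treated replicate 2 or 3 (0.111 and 0.0580). Of the other expressed KCNH genes, KCNH4 was at 0.654, 0.344 and 0.697 CPM in controls and 0.193, 0.285 and 0.152 CPM in treated libraries and did not pass (-1.42 ± 0.72, adjusted p = 0.134), and KCNH3 did not either (0.62 ± 0.59, adjusted p = 0.445). The cardiac KCNH2 (ERG) had 0 to 26 reads and was not tested.

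Among two-pore genes 1 of 5 tested rose and 1 fell. KCNK1 (chromosome 1, 233614004 to 233672512), a weakly conducting background channel gene, was at 25.8, 29.3 and 24.3 CPM in controls and 15.5, 20.6 and 18.0 CPM in treated libraries. Every treated library was below every control, with a log2 fold change of -0.55 ± 0.15 (edgeR adjusted p = 0.00766), and -0.40 ± 0.13 with the correction (adjusted p = 0.0436). The uncorrected call was lost without treated replicate 1 (adjusted p = 0.0505). The corrected one was lost without control replicate 1 or 2 (0.0569 and 0.167) or treated replicate 1 or 3 (0.176 and 0.109).

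KCNK15 (chromosome 20, 44745780 to 44752313), an acid-sensitive type of two-pore subunit that gives no current when expressed alone, went the other way. It was at 24.79, 29.02 and 26.75 CPM in controls and 40.6, 33.7 and 31.9 CPM in treated libraries, and treated replicate 1 was the highest. The log2 fold change was 0.40 ± 0.13 (edgeR adjusted p = 0.0265), and -0.0090 with the correction (adjusted p = 0.971). The uncorrected call was lost without control replicate 1 or 3 (adjusted p = 0.0745 and 0.0720) or treated replicate 1 (0.166). KCNK15 shares 57 exon bases with KCNK15-AS1 and 506 with RIMS4 on the opposite strand, and with the counting's strand setting not given, their reads cannot be told apart there.

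Further two-pore genes did not pass. KCNK5, an alkaline-activated channel gene of epithelia, was at 3.82, 5.12 and 3.99 CPM in controls and 6.31, 2.85 and 3.82 CPM in treated libraries (log2 fold change 0.0011 ± 0.28, edgeR adjusted p = 0.998). KCNK3, an acid-sensitive background channel gene, was at 2.816, 3.635 and 2.198 CPM in controls and 4.06, 3.76 and 5.31 CPM in treated libraries (0.60 ± 0.27, adjusted p = 0.0915), and passed without control replicate 2 (0.0376). KCNK7 was at 0.553 to 1.20 CPM in controls and 0.784 to 1.40 CPM in treated libraries (0.30 ± 0.51, adjusted p = 0.684). In KCNK5 treated replicate 1 was above and replicate 2 below all controls, whereas in KCNK3 every treated library was above every control.

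The inward rectifier KCNJ12 (chromosome 17, 21376197 to 21419872), of the strongly rectifying type, was at 13.6, 13.1 and 12.5 CPM in controls and 18.7, 17.8 and 17.0 CPM in treated libraries. The groups were well separated (log2 fold change 0.45 ± 0.15, edgeR adjusted p = 0.0281), but the call was lost with the correction (0.06, adjusted p = 0.840) and without control replicate 3 (0.0957) or treated replicate 1, 2 or 3 (0.0951, 0.0707 and 0.0577). KCNJ18 is a near-identical copy, with up to 10 reads in a library, so the split of reads between the pair is uncertain. KCNJ11, the pore subunit of ATP-sensitive channels, was at 0.115 to 0.295 CPM in controls and 0.193 to 0.860 CPM in treated libraries and did not pass (1.56 ± 0.76, adjusted p = 0.120). KCNJ14 did not pass either (0.52 ± 0.53, adjusted p = 0.481), and it shares 350 exon bases with the much more abundant GRWD1.

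Of the accessory genes, 2 of 6 tested rose and 0 fell. KCNAB2 (chromosome 1, 5991466 to 6101193), a beta subunit that binds Kv channels inside the cell, was at 33.9, 37.5 and 35.9 CPM in controls and 50.5, 47.1 and 47.6 CPM in treated libraries. Both groups were tight and apart, with a log2 fold change of 0.44 ± 0.11 (edgeR adjusted p = 0.00645), and 0.07 with the correction (adjusted p = 0.694). KCNIP3 (chromosome 2, 95297304 to 95386083) encodes a calcium-binding protein that joins KCND channels and also acts as a transcriptional repressor. Its levels were 0.704, 0.258 and 0.670 CPM in controls and 2.35, 1.51 and 1.52 CPM in treated libraries. No control reached a treated library (log2 fold change 1.70 ± 0.47, edgeR adjusted p = 0.00849), yet the call was lost with the correction (1.36, adjusted p = 0.0657) and without treated replicate 1 (0.0569). KCNAB3, KCNIP2 and KCNIP4, all below 1 CPM on average, did not pass.

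**Figure D4:**
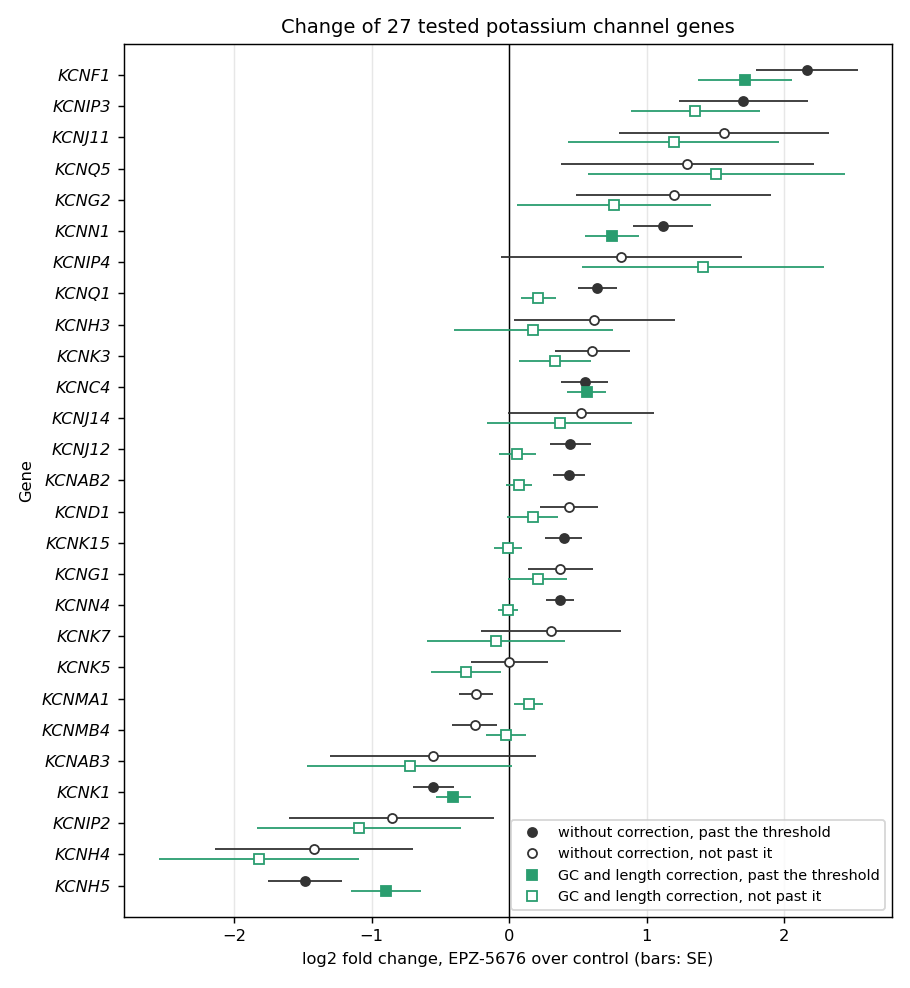
Log2 fold change (EPZ-5676 over control) of 27 tested potassium channel genes with SE bars, without correction (black circles) and with the GC and length correction (green squares), filled where past the threshold of adjusted p under 0.05. Most called rises of modest size, such as KCNN4, KCNAB2 and KCNJ12, lie near 0 after the correction, whereas KCNF1, KCNN1, KCNC4, KCNH5 and KCNK1 stay filled.

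By non-overlap of the libraries alone, 12 of the 29 had every treated library above every control and 4 had every one below, against 21.8% and 24.2% of all genes tested (46% in all). Among the 17 members that did not pass, 12 had positive and 5 negative fold changes, and 10 of the 17 had a mean under 1 CPM. Genes longer than 100 kb, where 5.61% of protein-coding genes were higher and 29.8% lower, numbered 6 among the tested members. Of these, KCNQ1 and KCNAB2 rose and KCNH5 fell, while KCNMA1, KCNQ5 and KCNIP4 did not pass.

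A list of 41 other genes of potassium handling (pumps, cotransporters, auxiliary subunits and regulators) had 23 tested, of which 3 were higher and 3 lower, against 15% and 18.7% of all genes tested, so the list held no more calls than the background. HCN2, a hyperpolarisation-activated cation channel gene, was at 70.4, 107 and 95.6 CPM in controls and 150.1, 117 and 136 CPM in treated libraries (log2 fold change 0.56 ± 0.13, edgeR adjusted p = 0.00312). FXYD5 (0.54 ± 0.13), a regulator of the sodium-potassium pump, and SLC12A4 (0.32 ± 0.10), a potassium-chloride cotransporter gene, also rose. The pump subunits ATP1B3 (-0.75 ± 0.10) and ATP1B1 (-0.42 ± 0.11) fell, as did the kinase SGK1 (-0.58 ± 0.11). ATP1B3, at 216, 208 and 205 CPM in controls and 124, 119 and 130.4 CPM in treated libraries, was the only 1 of the 6 called with the correction (-0.35, adjusted p = 0.00580). The KATP partners ABCC8 and ABCC9 were at no more than 0.944 CPM in any library.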

How the data were processed

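RNA of 6 SW1990 libraries was enriched on oligo(dT) beads and made into dUTP-marked libraries, per the labels' protocols. The submitters' processing notes name HISAT2 2.2.1 and the build GRCh38 (hg38). The deposited table holds the authors' raw read counts per gene, with no normalization. Its coordinates and its gene lengths equalled those of GENCODE 29 (merged exons) in 58735 of 58735 rows. Counting tool and strand setting: not given in the sources used here. In every library more genes had a count of 2 than of 1 (1044 to 1418 against 602 to 909), and 58.8% to 62.4% of counts from 1 to 50 were even, so low counts may not be independent reads.

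All genes were fitted in edgeR 4.0.16 (R 4.3.3) with filterByExpr (minimum count 10), TMM scaling, the robust quasi-likelihood test and Benjamini-Hochberg adjustment (threshold 0.05). The SE is the log2 fold change divided by the square root of F. CPM uses TMM-scaled library sizes. The correction fitted natural splines (5 degrees of freedom each for GC content and length of the longest GENCODE 29 transcript) per library and entered them as offsets. Alternatives were other scalings (RLE, upper quartile) and filters, limma-voom (limma 3.58.1), DESeq2 1.42.0, a replicate block, the correction, and each library left out. Scripts were tested on simulated data. Named were all members that passed and the 8 most abundant per length that did not; further ones were chosen after their values were seen. Some genes are not reported here, and counts include them. Members and lists were chosen with earlier results of these data known. Figures were drawn with matplotlib 3.10.9.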

Additional observations from a re-analysis of the deposited data

How the results depend on the processing

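The scaling, filter, DESeq2 and limma-voom alternatives gave 9 or 10 higher and 2 lower members. Over all genes they called 2213 to 2811 higher and 2637 to 2947 lower. The GC and length correction gave 4 and 2, and 837 and 864 over all genes. Deviations of same-numbered libraries from their group means had correlations of -0.11, -0.09 and 0.05, and those of different-numbered libraries -0.08 to 0.15. With deviations centred in groups of 3, these values are tied to each other and cannot decide whether the numbers mark pairs. The main fit did not take them as pairs. With the replicate block 8 members were higher and 2 lower (1677 and 2219 over all genes), and with the block and the correction 3 and 1 (689 and 685). KCNK15 (edgeR adjusted p = 0.069) and KCNJ12 (0.0704) did not pass with the block, nor KCNK1 (0.0507) with the block and the correction. Leaving out 1 library gave 7 to 12 higher and 1 to 2 lower members (1350 to 2780 and 1753 to 3167 over all genes), and with the correction 1 to 4 and 0 to 1 (397 to 856 and 512 to 815). No correction with a library left out kept both KCNH5 and KCNK1. The change of KCNN4 was -0.0063 with the correction and -0.0066 with the block as well. With a library left out it was 0.30 to 0.43, and -0.0298 to 0.0257 with the correction too. That of KCNK15 was -0.0090, -0.0120, 0.29 to 0.47 and -0.0728 to 0.0558 under the same 4 settings. That of KCNJ12 was 0.41 to 0.49 with a library left out, and -0.0047 to 0.17 with the correction too. The cause of these shifts was not tested. Members under 1 CPM rest on few reads, where a missed threshold does not show that levels were alike.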

Other observations

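Of 21 non-coding or pseudogene rows named after potassium channel genes, KCNK15-AS1 was the only 1 tested. It stood at 1.56, 2.12 and 1.98 CPM in controls and 2.58, 2.37 and 2.98 CPM in treated libraries, with no overlap, and did not pass (log2 fold change 0.49 ± 0.31, edgeR adjusted p = 0.230). KCNQ1OT1, the antisense transcript within KCNQ1, was listed at 0 reads in all 6 libraries. KCNMB2-AS1 was at 0.201, 0.401 and 0.241 CPM in controls and 0, 0.143 and 0.0506 CPM in treated libraries, below the filter.

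KCNS3, a modifier subunit that failed the filter, had 4, 4 and 6 reads in controls and 32, 6 and 12 in treated libraries, and treated replicate 1 was the highest. KCNK2 had 12 reads in treated replicate 3 and 0 elsewhere, and KCNC1 had 10 in control replicate 1 and 0 elsewhere.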
